A study of Homo sapiens with 21 samples.

Results

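The hnRNP H/F genes HNRNPH1, HNRNPH2, HNRNPH3 and HNRNPF were followed through crosslinking libraries of 5 RNA-binding proteins. Members were the sequence clusters that carried these 4 gene names in the fluorescent libraries, 538 of 756278 clusters with 34317 of 8782655 reads. HNRNPH1 had 262 clusters with 26203 reads, HNRNPH2 22 with 566, HNRNPH3 186 with 4472 and HNRNPF 68 with 3076. In the AGO2 gel libraries the names covered 48 clusters with 673 reads, none of them on HNRNPH2. The family was chosen by the FUBP3 and KHSRP reads of HNRNPH1, which were already known, so contrasts of those libraries are given as a description, without a test.

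All libraries came from Flp-In 293 T-REx, an established human embryonic kidney line, with a stably integrated FLAG-HA tagged protein in each. Cells received 4-thiouridine, which crosslinks to bound protein under UVA or UVB light and leaves T-to-C changes in the reads (PAR-CLIP). In the fluorescent form of the assay (fPAR-CLIP) 11 libraries were analysed: FUBP3 and KHSRP at 0.15, 0.5 and 1.5 U/ul RNase I, AGO2 with the lowest and highest of these doses, CPSF1 with the middle dose, and U2AF1 treated with RNase A and T1 at 1.5 or 15 U/ml. Radiolabelled libraries cut with RNase T1 stood beside them: FUBP3 and KHSRP at 0.5 U/ul, and 4 of AGO2 at 1 U/ul, 2 made without and 2 with a urea gel step. Labelling used 100 uM 4-thiouridine for 8 to 12 h, except for U2AF1, with 250 uM for 2 h. KHSRP cells were lysed in RIPA buffer with sonication and U2AF1 was taken from chromatin, while cytoplasmic proteins were released with NP40; the labels do not name the buffer used for FUBP3. For FUBP3 against KHSRP, a difference of lysis and of protein therefore cannot be told apart. Each condition had 1 library, apart from the AGO2 gel groups with 2 each.

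Reads in clusters ranged from 75383 (U2AF1, 15 U/ml) to 2172248 (KHSRP, 0.15 U/ul) per library. A gene's level is given in RPM, its reads per 1000000 reads in clusters of the same library, and intervals are at 95% and cover counting error only. In the 6 fluorescent FUBP3 and KHSRP libraries, 14.2 to 19.1 of 100 FUBP3 reads and 25.2 to 44.7 of 100 KHSRP reads were distinct sequences, a gap that moves with the protein and whose part in the ratios was not tested; counted on distinct sequences, the HNRNPH1 log2 ratio was -2.78, -3.36 and -3.89 at the 3 doses. Stretches of 18 nt that also occur in clusters outside this family made up 4.07% of HNRNPH1 and 4.17% of HNRNPH3 cluster bases, and 0 of HNRNPH2 and HNRNPF. Stretches shared between the members themselves were not searched.

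hnRNP H and F proteins bind runs of G in RNA through quasi-RNA recognition motifs, and regulate alternative splicing and polyadenylation; here their own transcripts were the targets. KHSRP and FUBP3 are related KH-domain proteins, KHSRP with roles in splicing, microRNA processing and decay of AU-rich mRNAs. AGO2 carries microRNAs to target mRNAs, U2AF1 recognises the AG at the end of introns, and CPSF1 belongs to the complex that cleaves and polyadenylates transcripts.

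HNRNPH1, the most widely studied family member and a broad splicing regulator, was the second most read gene of all in each fluorescent KHSRP library. It held 5863, 8077 and 8781 RPM there at 0.15, 0.5 and 1.5 U/ul, from 12735, 7313 and 1758 reads. In FUBP3 it held 811, 897 and 763 RPM, from 1365, 1773 and 618 reads, and ranked 57, 40 and 60 among genes. The KHSRP library was the higher at every dose. The log2 ratio of FUBP3 over KHSRP was -2.85 (-2.94 to -2.77), -3.17 and -3.53, while the median gene stood at 0.20, -0.16 and -0.57. At the lowest dose KHSRP was 7.23-fold higher and 0.258% of 4265 genes had a lower ratio.

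**Figure D1:**
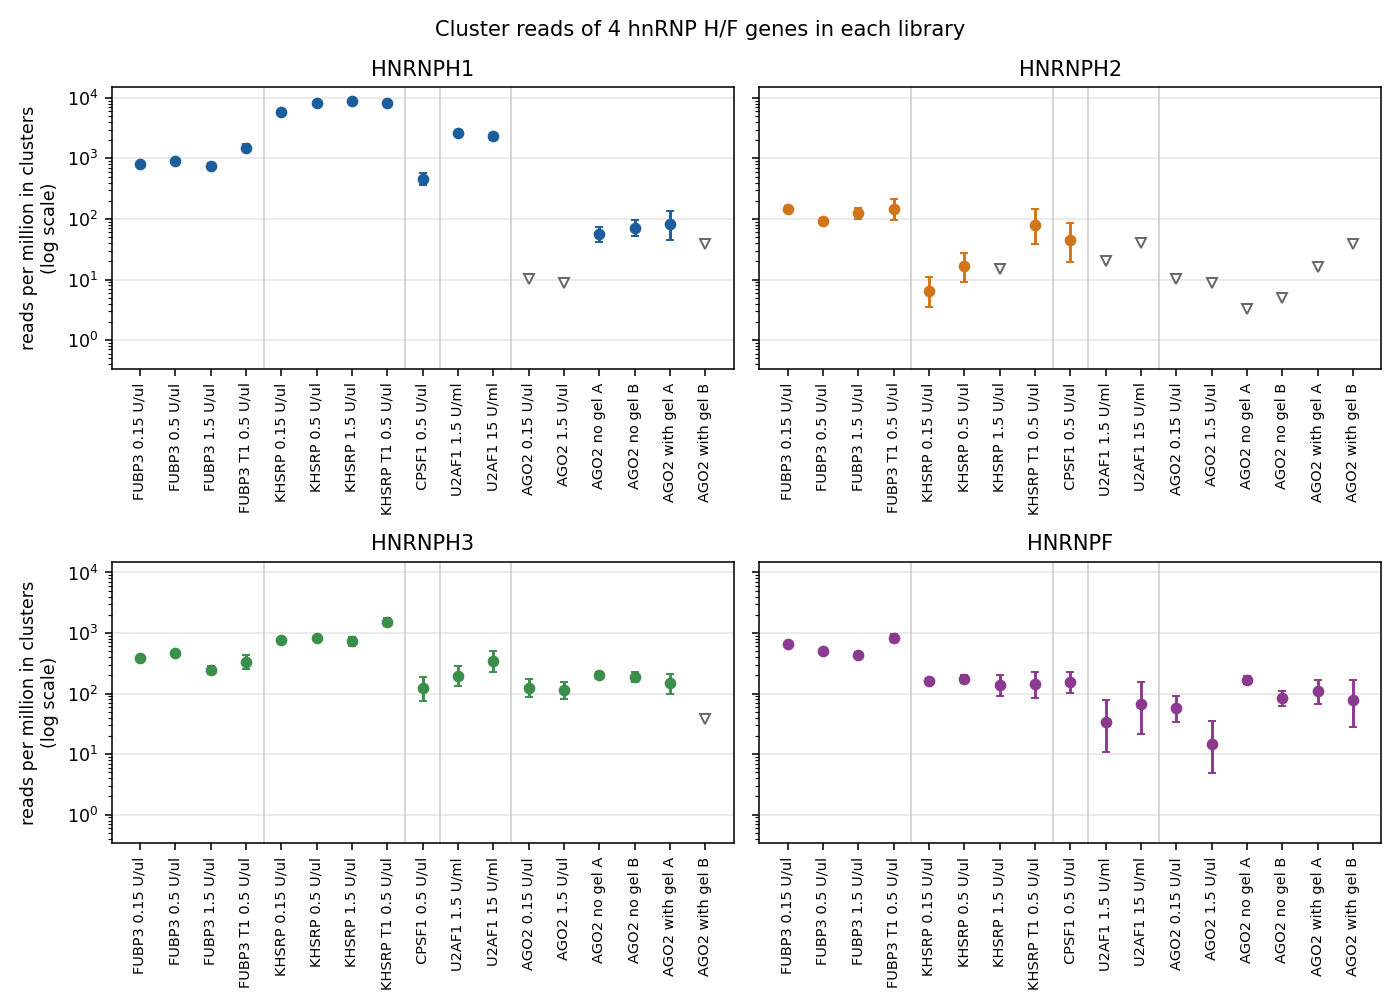
Level in RPM (log axis) of each of the 4 genes in every library, with exact 95% intervals; open triangles mark libraries with no read, drawn at the level of 3 reads. HNRNPH1 lies between 5863 and 8781 in the fluorescent KHSRP libraries and between 763 and 897 in the fluorescent FUBP3 libraries, and HNRNPH2 and HNRNPF lie higher in FUBP3.

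The X-linked paralogue HNRNPH2 went the opposite way. FUBP3 gave it 147, 91.1 and 125 RPM (248, 180 and 101 reads), and KHSRP 6.44, 16.6 and 0 RPM (14, 15 and 0 reads). FUBP3 was 22.9-fold higher at 0.15 U/ul and 5.50-fold at 0.5 U/ul. At 1.5 U/ul FUBP3 was 8.32-fold higher with 3 reads set for the library with none. The smallest cluster in that KHSRP library held 5 reads. A 0 can thus hide reads at several sites, and such folds are not strict bounds. A further 66 KHSRP reads at 0.15 U/ul and 7 at 0.5 U/ul carried the readthrough name RPL36A-HNRNPH2 and were not counted, against 5 and 16 in FUBP3; all lay outside the RefSeq span of HNRNPH2.

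HNRNPF, the paralogue that gives the group its second letter, was also higher in FUBP3, with 669, 505 and 438 RPM (1127, 998 and 355 reads) against 161, 175 and 140 RPM (350, 158 and 28 reads) in KHSRP. Its log2 ratio was 2.05, 1.53 and 1.65, with the lowest bound at 1.09. HNRNPH3, a smaller paralogue, had 388, 463 and 244 RPM in FUBP3 (653, 914 and 198 reads) and 761, 835 and 729 RPM in KHSRP (1653, 756 and 146 reads). It was 1.96-, 1.80- and 2.98-fold higher in KHSRP, with log2 ratios of -0.97, -0.85 and -1.58. Scaled by median-of-ratios size factors instead, HNRNPH3 stood at -0.28, -0.22 and -1.01, much nearer to equal at the lower doses, and HNRNPF at 2.75, 2.16 and 2.21.

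Per kilobase of gene span the levels of the 4 genes lay closer together in FUBP3 than in KHSRP. Whole RefSeq spans were used, though reads were not spread over them. On HNRNPH1, of 20.6 kb, no fluorescent FUBP3 or KHSRP cluster lay within 11400 nt of the 5' end. Other lengths were not tried. At 0.15 U/ul FUBP3 had 39.3 RPM per kb on HNRNPH1, 33.7 on HNRNPH3, 28.4 on HNRNPF and 24.9 on HNRNPH2. KHSRP had 284 RPM per kb on HNRNPH1, 66.1 on HNRNPH3, 6.84 on HNRNPF and 1.09 on HNRNPH2. The order in KHSRP was the same at 0.5 U/ul (392, 72.6, 7.40 and 2.80) and at 1.5 U/ul (426, 63.4, 5.93 and 0).

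A minimum of 50 reads in all 6 of these libraries left 789 genes. At 0.15, 0.5 and 1.5 U/ul 38.9%, 35.9% and 29.0% of them were over 2-fold higher in KHSRP, and 6.34%, 4.18% and 1.65% in FUBP3. Of the 789, 140 (17.7%) were over 2-fold higher in KHSRP at all 3 doses and 5 (0.634%) in FUBP3. Only HNRNPH1 and HNRNPH3 reached that minimum, and of these HNRNPH1 was past 2-fold at each dose. The median of the 789 genes, averaged over doses, was -0.64, so the split leans on scaling by cluster reads: with median-of-ratios size factors it was 40 in KHSRP against 41 in FUBP3. HNRNPH1 still stood at -2.16, -2.54 and -2.96 with those factors. Among 23 other hnRNP genes 8 could be compared, 3 past 2-fold in KHSRP and 0 in FUBP3, with a median of -1.5. SYNCRIP, an RNA-binding relative of hnRNP R, was the highest at 0.48 and HNRNPA2B1 the lowest at -2.07, as means over the doses.

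The clusters behind these levels sat in different places of the genes. Of HNRNPH1 reads, introns and exon-intron boundaries held 96.2%, 98.9% and 96.4% in KHSRP and 75.6%, 68.1% and 72.5% in FUBP3. With the reads of all genes pooled the share was 85.3%, 84.6% and 84.5% in KHSRP and 55.1%, 54.8% and 62.6% in FUBP3. The median gene stood higher, at 91.2%, 92.8% and 96.2% in KHSRP and 63.4%, 60.8% and 73.3% in FUBP3. The HNRNPH1 share was above that of 50.1% to 67.7% of genes in KHSRP and 49.2% to 58.9% in FUBP3. HNRNPH1 thus lay near the middle of the genes, and below the median gene in FUBP3 at 1.5 U/ul. HNRNPH3 had 85.7%, 84.7% and 94.5% of its KHSRP reads in introns and boundaries but 26.5%, 27.6% and 36.4% of its FUBP3 reads. HNRNPF lay mainly in the 3' UTR in both, with intron shares of 2.93%, 5.51% and 12.1% in FUBP3 and 23.7%, 7.59% and 0 of 28 reads in KHSRP, the last allowing up to 10.7%. HNRNPH2 had no intron read in FUBP3 (0 of 248 reads, which allows up to 1.21%) and 5 of 14 and 6 of 15 in KHSRP.

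**Figure D2:**
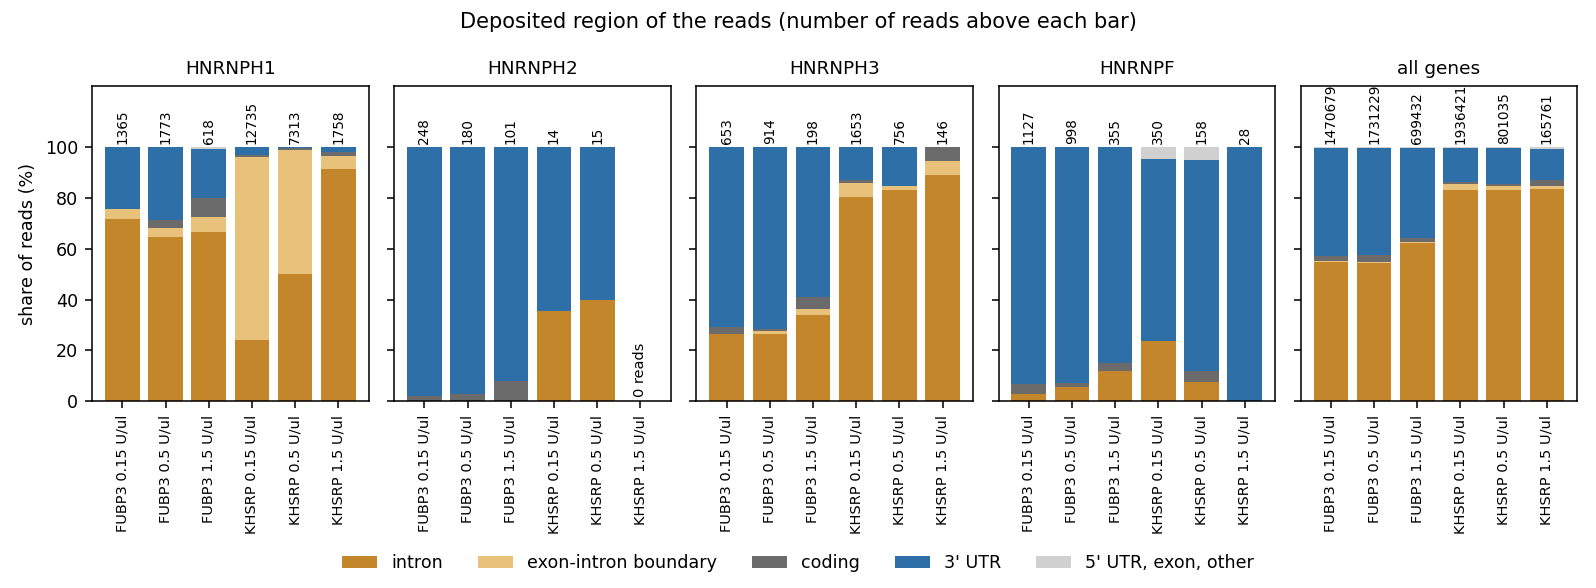
Share of reads (%) by the deposited region of their cluster, for each gene and for all genes, in the fluorescent FUBP3 and KHSRP libraries, with the reads above each bar. Boundary clusters (light brown) make up 72.1% of HNRNPH1 reads in KHSRP at 0.15 U/ul, and the 3' UTR (blue) holds 93.0% of HNRNPF reads in FUBP3 at that dose.

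HNRNPH1 was rich in boundary clusters, which span an exon and an adjoining intron, in both proteins. In KHSRP they held 9182, 3569 and 90 of its reads, the most of any gene at each dose, or 72.1%, 48.8% and 5.12% of the gene, against 2.13%, 1.49% and 1.25% over all genes. In FUBP3 they held 56, 62 and 36 reads, ranking 4, 8 and 3 among genes, or 4.10%, 3.5% and 5.83%, against 0.394%, 0.451% and 0.417% over all genes. At 1.5 U/ul the FUBP3 share was thus close to the KHSRP share, while KHSRP was far higher at the lower doses. HNRNPH1 clusters in KHSRP had a median of 117, 67 and 38 nt and reached 897, 563 and 198 nt, while the median over all genes was 30 nt at every dose. In FUBP3 the HNRNPH1 medians were 32, 34 and 29 nt. The part of cluster length in the boundary share was not tested. Without boundary clusters the HNRNPH1 intron ratio of FUBP3 over KHSRP was -1.28, -2.80 and -3.98, and with them -3.20, -3.71 and -3.94.

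Intron reads and 3' UTR reads gave different ratios for the same gene. In introns with boundaries HNRNPH1 was 9.20-, 13.1- and 15.3-fold higher in KHSRP and HNRNPH3 6.34-, 5.54- and 7.76-fold. Past 2-fold in that direction were 29.3%, 36.8% and 39.9% of the genes with at least 50 such reads in both libraries. HNRNPF had 33 against 83, 55 against 12 and 43 against 0 intron reads in FUBP3 and KHSRP, so its direction turned between 0.15 U/ul and the higher doses. Toward FUBP3, 9.35%, 2.35% and 0.154% of genes were past 2-fold. In the 3' UTR HNRNPH3 was 2.78- and 2.58-fold higher in FUBP3. At 1.5 U/ul KHSRP had 0 of its reads, and the fold was 9.64 with 3 reads set for the 0. HNRNPF was 5.39-, 3.23- and 2.66-fold higher in FUBP3, and HNRNPH2 34.8-, 8.91- and, set in the same way, 7.66-fold. There, 60.3%, 42.6% and 21.1% of genes were past 2-fold in FUBP3 and 2.90%, 8.96% and 21.1% in KHSRP, so the excess of these members lies in a direction common to many genes at the lower doses.

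HNRNPH1 was the exception in the 3' UTR. Its reads there were 333 against 399 at 0.15 U/ul, a log2 ratio of 0.11 (-0.11 to 0.32), and 120 against 32 at 1.5 U/ul, a ratio of -0.11 (-0.68 to 0.50). At 0.5 U/ul they were 508 against 28, a ratio of 3.06. The KHSRP library at 0.5 U/ul had 9 reads in the stretch chr5:179614413-179614599, where the 0.15 U/ul library had a cluster of 257 reads and the 1.5 U/ul library 27 reads. The ratio without that stretch was not computed.

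**Figure D3:**
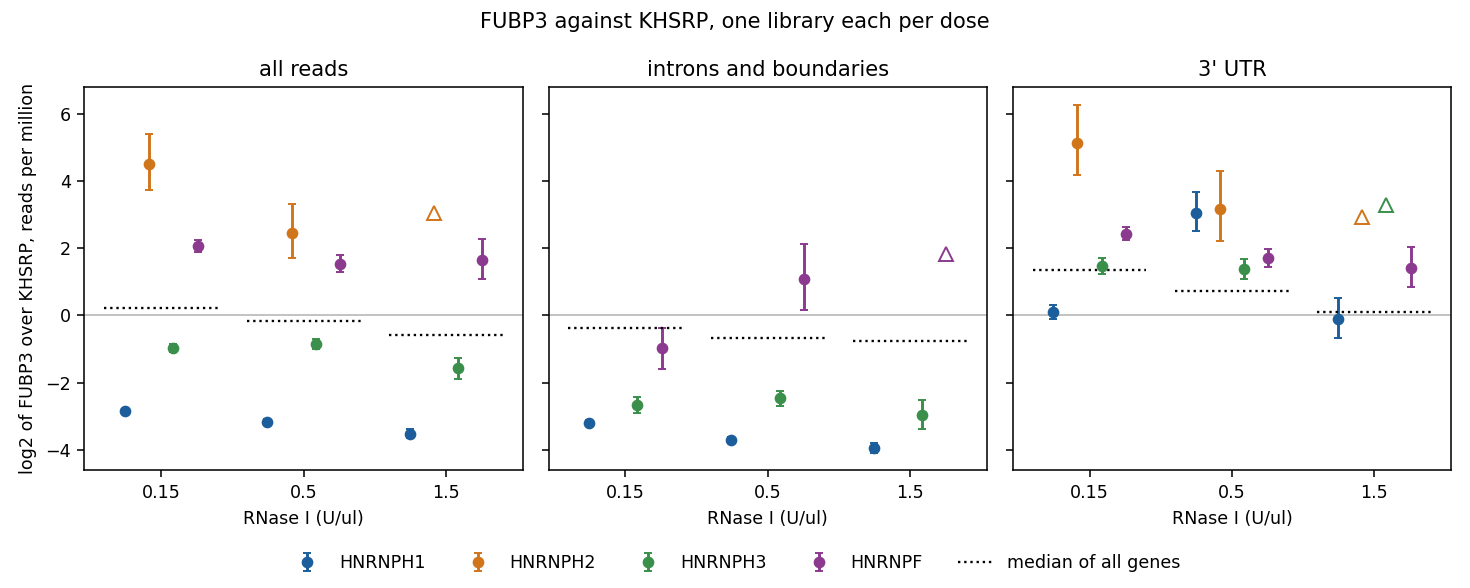
The log2 ratio of FUBP3 over KHSRP in RPM at each RNase I dose for all reads, introns with boundaries, and the 3' UTR, with exact 95% intervals; triangles are lower bounds where KHSRP had no read, and dotted lines are the median of all genes compared. HNRNPH1 and HNRNPH3 lie below -2.4 in introns at every dose, and all members lie above -0.2 in the 3' UTR.

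The gap between the 3' UTR ratio and the intron ratio was wide in 3 members. At 0.15 U/ul it could be computed for 1472 genes with at least 20 reads in each region and library, had a median of 1.90 on the log2 scale, and was above 0 in 1331 (90.4%). HNRNPH1 stood at 3.31, HNRNPF at 3.39 and HNRNPH3 at 4.14, above 84.5%, 85.9% and 94.4% of the genes. At 0.5 U/ul HNRNPH3 stood at 3.84 against a median of 1.67 over 863 genes. HNRNPH1 stood at 6.76 there, a value that includes the 28 KHSRP reads of its 3' UTR, and at 3.83 at 1.5 U/ul.

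**Figure D4:**
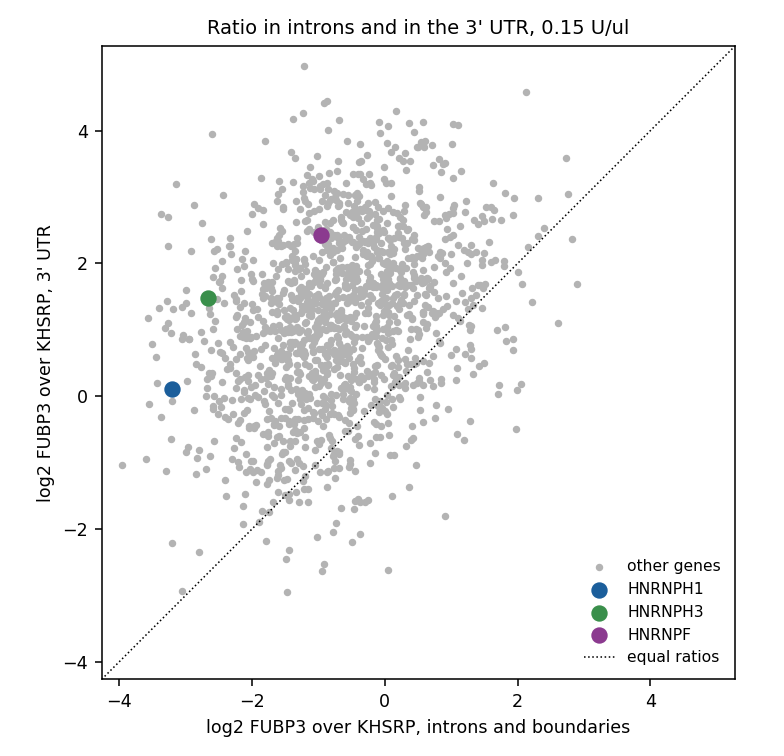
Each point is a gene at 0.15 U/ul, with the log2 ratio of FUBP3 over KHSRP in introns and boundaries on the x axis and in the 3' UTR on the y axis; the dotted line marks equal ratios. Of 1472 genes 1331 lie above the line, HNRNPH1 (-3.20, 0.11) at the left edge, HNRNPH3 (-2.67, 1.47) above it and HNRNPF (-0.96, 2.43) nearer the centre.

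Most KHSRP reads on HNRNPH1 came from a stretch of 1604 nt, chr5:179619301-179620904 (hg38, minus strand), which is 7.78% of the RefSeq span and begins 13880 nt from its 5' end. The stretch was marked out after the clusters had been seen, as the ground spanned by the 2 largest KHSRP clusters at 0.15 U/ul. It held 59.9%, 67.6% and 73.4% of HNRNPH1 reads in KHSRP and 83.2% in the KHSRP T1 library. In FUBP3 it held 48.8%, 45.6% and 50.0%, and 64.7% with T1. CPSF1 had 36 of 82 HNRNPH1 reads there, whereas U2AF1 had 14 of 385 at 1.5 U/ml and 0 of 174 at 15 U/ml. Short coding clusters lay at its 3' side, at chr5:179619332-179619373 in FUBP3 (33 reads, 1.5 U/ul) and chr5:179619337-179619373 in KHSRP (23 reads).

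**Figure D5:**
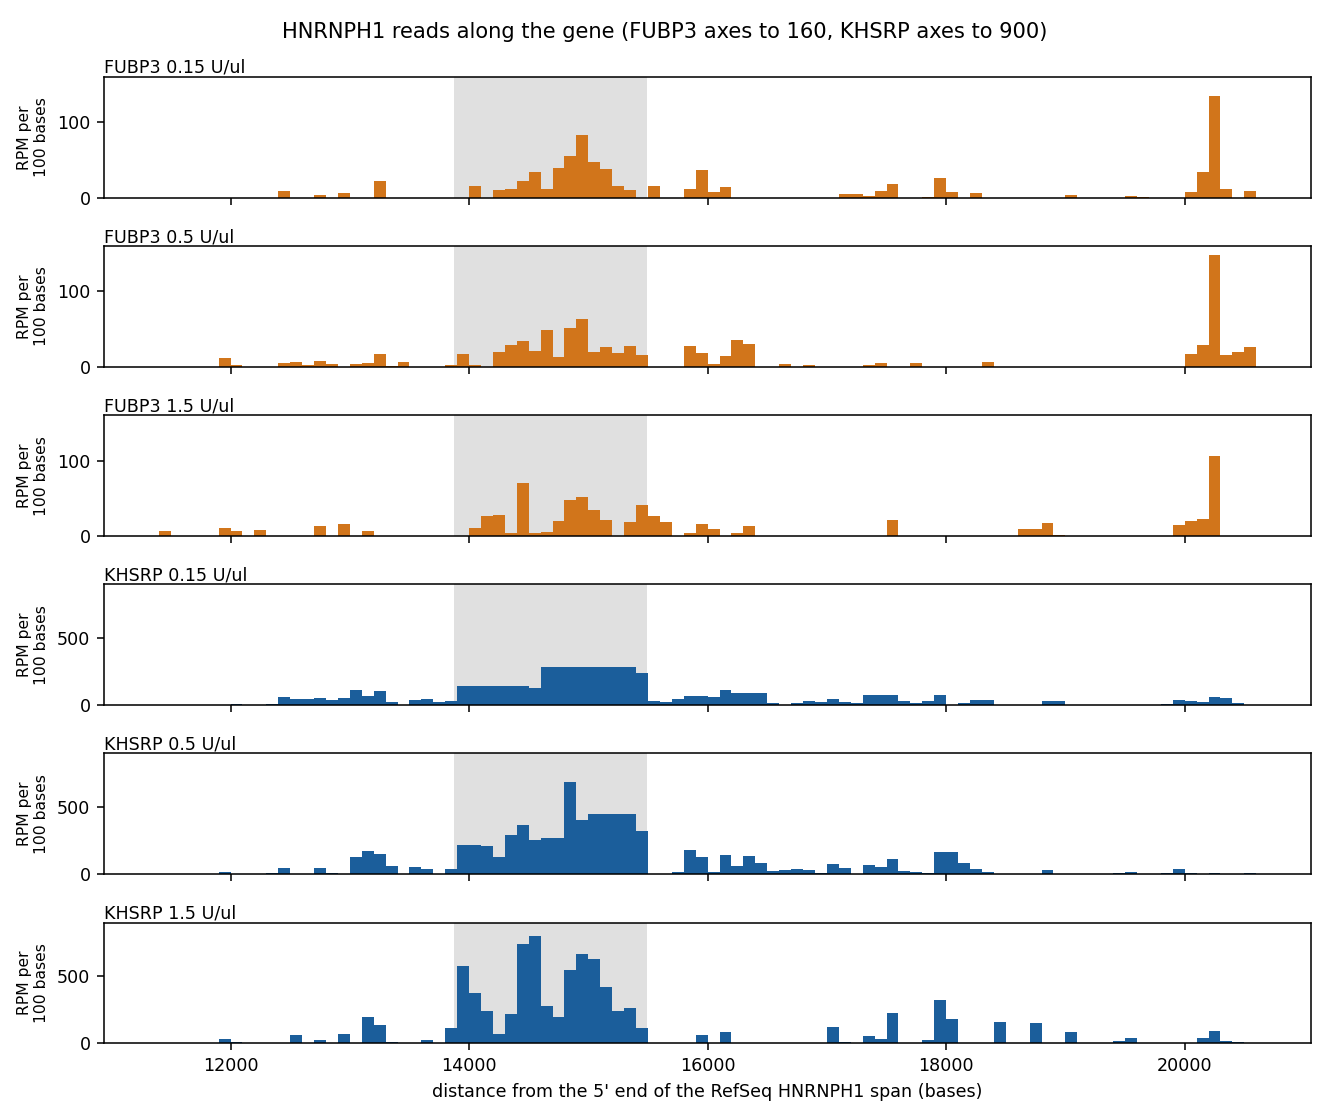
HNRNPH1 level in RPM in bins of 100 bases along the gene, each cluster's reads spread evenly over its length; the x axis is the distance from the 5' end of the RefSeq span, grey marks the stretch of 1604 nt, and the FUBP3 and KHSRP axes differ in scale. KHSRP reads lie mainly in the grey stretch, with 59.9% to 73.4% of the gene's reads, while FUBP3 has a further peak near the 3' end.

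Within this stretch the KHSRP clusters grew shorter from 0.15 to 1.5 U/ul, with medians of 791, 226.5 and 75.5 nt, and 32 nt with T1. They covered 98.6%, 94.1%, 70.8% and 30.5% of it, from 7625, 4945, 1290 and 872 reads. Because the stretch is the span of the 2 clusters at 0.15 U/ul, the 98.6% and the 791 nt were fixed by that choice. The part of depth in the other values was not tested. The sequences below are 30 bases around the most covered base of the largest HNRNPH1 intron or boundary cluster in each library listed. The KHSRP clusters they come from held 43.3%, 31.1% and 15.1% of the gene's reads at the 3 doses, so most of its reads lay in other clusters. In FUBP3 at 0.15 and 0.5 U/ul the largest HNRNPH1 cluster of any region lay in the 3' UTR, with 285 and 279 reads. Capitals mark the motif GGG, the word TGTA, the word TATA or a run of TTTT on the RNA strand.
HNRNPH1 in KHSRP 0.15 U/ul, chr5:179619308-179619337, cluster of 5511 reads: cgtgcagtttgcttcacaggaaatagctga
HNRNPH1 in KHSRP 0.5 U/ul, chr5:179619329-179619358, cluster of 2271 reads: gaggagtacGGGGGaggccttcgtgcagtt
HNRNPH1 in KHSRP 1.5 U/ul, chr5:179619937-179619966, cluster of 265 reads: ccagaagtgaatcataactactgttagagc
HNRNPH1 in KHSRP T1, chr5:179619689-179619718, cluster of 240 reads: attgaatTGTATAattctcaacattaagtt
HNRNPH1 in FUBP3 0.15 U/ul, chr5:179619825-179619854, cluster of 178 reads: cagTTTTTATAtgaaatgtTGTAaaTGTAt
HNRNPH1 in FUBP3 0.5 U/ul, chr5:179619919-179619948, cluster of 229 reads: tactgttagagcataagcatgcatgattgt
HNRNPH1 in FUBP3 1.5 U/ul, chr5:179619840-179619869, cluster of 80 reads: TATAatttaatgtttcagTTTTTATAtgaa

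The FUBP3 windows at 0.15 and 1.5 U/ul overlap and hold TATA and TTTT, while the FUBP3 window at 0.5 U/ul overlaps that of KHSRP at 1.5 U/ul and holds none of the marked letters. The KHSRP T1 window holds TGTA and TATA, and the fluorescent KHSRP windows hold neither. Among intron clusters of 20 to 40 nt, TATA was less frequent on HNRNPH1 than over all genes in each fluorescent FUBP3 and KHSRP library. GGG was more frequent except in FUBP3 at 1.5 U/ul, and TGTA and TTTT went both ways. The 2 largest KHSRP clusters at 0.15 U/ul were 66.7% A and T, against 67.9% over all KHSRP intron clusters. Per kb they held TGTA 8.85 times, TATA 9.48 times and GGG 6.95 times, against 12.8, 11.5 and 4.95 over all. Among intron clusters of 20 to 40 nt in FUBP3 at 0.15 U/ul, 1 of 27 on HNRNPH1 held TATA and 9 held GGG, against 18.6% and 20.3% of all. At 1.5 U/ul 3 of 21 held TATA and 5 held GGG, 14.3% and 23.8%, against 16.3% and 28.6%. At 0.5 U/ul 1 of 16 held TATA, against 19.0%. In KHSRP 0 of 5, 0 of 9 and 1 of 16 held TATA at the 3 doses, against 24.6%, 27.3% and 21.9%. These are matches of letters on the RNA strand in few clusters that partly overlap between libraries.

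At the lowest dose FUBP3 clusters covered 1854 nt of HNRNPH1 and KHSRP clusters 5520 nt, with 1724 nt in both. At 0.15 U/ul 40 of 41 FUBP3 clusters, with 99.3% of reads, overlapped a KHSRP cluster, and 18 of 36 KHSRP clusters, with 85.4% of reads, overlapped a FUBP3 cluster. At 1.5 U/ul the overlap was 18 of 34 and 17 of 36 clusters. On HNRNPH3 13 of 29 FUBP3 and 12 of 58 KHSRP clusters overlapped at 0.15 U/ul, and 1 of 16 and 1 of 13 at 1.5 U/ul. Any shared base counted as overlap. KHSRP clusters at 0.15 U/ul had a median of 117 nt on HNRNPH1 and 38.5 nt on HNRNPH3. The part of cluster length and depth in these counts was not tested, and the overlap over all genes was not computed. The KHSRP clusters of HNRNPH1 at 1.5 U/ul fell in those at 0.15 U/ul for 96.2% of reads.

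In the 3' UTRs, FUBP3 reads gathered in a few clusters per gene. Windows from the 3' UTR clusters with most FUBP3 reads at 0.5 U/ul are shown, with the same letters in capitals.
HNRNPH1, chr5:179614483-179614512, 279 reads: ttgaacactgTTTTggatgcatgttgaaag
HNRNPH2, chrX:101414005-101414034, 68 reads: tggtcgtgtcgttTGTAtgaaaatctgagg
HNRNPH3, chr10:68342258-68342287, 209 reads: TTTTTATAttcaaaccactgatgttgatac
HNRNPF, chr10:43386119-43386148, 727 reads: attggtgaggccttgacttaaaactttctt
The HNRNPF cluster, chr10:43386033-43386254 on the minus strand, held 72.8% of the gene's FUBP3 reads at 0.5 U/ul. At 0.15 U/ul the cluster chr10:43386053-43386212 held 57.1% (644 of 1127 reads). KHSRP had its largest HNRNPF cluster in the same place, chr10:43386086-43386255, with 178 reads and 50.9% of the gene. The largest HNRNPH3 clusters of FUBP3 lay at chr10:68342194-68342239 (137 reads), chr10:68342195-68342311 (209 reads) and chr10:68342210-68342240 (57 reads), so the same place led at all 3 doses.

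The largest KHSRP clusters in HNRNPH3 introns lay near each other at the 3 doses. Windows from its largest clusters at 0.5 and 1.5 U/ul overlap and are printed because both hold G runs, in capitals, of the kind that hnRNP H and F proteins bind.
HNRNPH3 in KHSRP 0.15 U/ul, chr10:68338442-68338471, 169 reads: gtatctaatttacactaatacatttatgct
HNRNPH3 in KHSRP 0.5 U/ul, chr10:68338141-68338170, 107 reads: cagatttGGGtGGGGaattaatgctaatag
HNRNPH3 in KHSRP 1.5 U/ul, chr10:68338134-68338163, 47 reads: gaaactacagatttGGGtGGGGaattaatg
Of 14 HNRNPH3 intron clusters of 20 to 40 nt in KHSRP at 0.5 U/ul, 7 held GGG, against 15.4% of 61378 clusters over all genes. At 0.15 U/ul it was 4 of 21 against 13.9%, and at 1.5 U/ul 2 of 8 against 25.7%. FUBP3 had 6 of 16 at 0.15 and at 0.5 U/ul, against 20.3% and 17.6%, and 3 of 9 at 1.5 U/ul, against 28.6%.

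Reads in clusters classed as coding were few in both proteins. Boundary clusters also cover exon bases and are left out of the counts below. The window around the most covered base of the largest KHSRP boundary cluster on HNRNPH1 at 0.5 U/ul, chr5:179619329-179619358, overlaps a coding cluster of KHSRP at 1.5 U/ul, chr5:179619337-179619373. HNRNPH1 had 0, 58 and 45 coding reads in FUBP3 and 88, 55 and 31 in KHSRP. HNRNPH3 had 17, 9 and 9 in FUBP3 and 22, 0 and 8 in KHSRP. HNRNPF had 46, 19 and 11 in FUBP3 and 0, 7 and 0 in KHSRP, and HNRNPH2 had 5, 5 and 8 against none. At 1.5 U/ul the coding share of FUBP3 reads was 7.28% (5.49 to 9.60) on HNRNPH1 and 7.92% (4.07 to 14.9) on HNRNPH2, against 1.69% over all genes.

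From 0.15 to 1.5 U/ul HNRNPH1 in KHSRP went from 5863 to 8781 RPM, a log2 ratio of low over high dose of -0.58 (-0.65 to -0.51) against a median of 0.07 over 826 genes. In FUBP3 it went from 811 to 763 RPM, a ratio of 0.09 (-0.05 to 0.23). HNRNPH3 and HNRNPF were higher at 0.15 U/ul in FUBP3, with ratios of 0.67 (0.43 to 0.90) and 0.61 (0.44 to 0.79) against a median of -0.11 over 3741 genes. No member with at least 50 reads at both doses passed 2-fold in either protein, where 2.43% and 7.08% of genes did so in FUBP3, toward the low and the high dose, and 6.17% and 10.8% in KHSRP. The FUBP3 ratio of HNRNPF was -0.028 without its largest cluster in each library.

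The radiolabelled T1 libraries, were read by RefSeq gene span, because their deposited gene names disagree with their positions. All 272 and 1048 reads in the HNRNPH1 span carried another gene's name, and those in the spans of the other members carried none. Of 65 T1 clusters in the 4 spans, 50 lay inside a fluorescent cluster of the member, and all 50 had the same letters there. HNRNPH1 held 1512 RPM in FUBP3 (272 reads) and 8320 RPM in KHSRP (1048 reads), a ratio of -2.46 (-2.66 to -2.27). HNRNPF held 828 against 143 RPM, a ratio of 2.54 (1.83 to 3.33), and HNRNPH3 334 against 1508 RPM, a ratio of -2.18 (-2.62 to -1.75). HNRNPH2, with 26 against 10 reads, stood at 0.86 (-0.24 to 2.08), an interval that includes 0. Of 237 genes 11.8% were past 2-fold in FUBP3 and 38.0% in KHSRP, with a median of -0.51. These libraries share no sample with the fluorescent ones, though RNase, label and adapter differ as well. For HNRNPH2 the 10 KHSRP reads formed a single cluster, which FUBP3 also had, with 12 reads.
HNRNPH2 in both T1 libraries, chrX:101413777-101413798: ctctTATAccacaaatacattg

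Set against the fluorescent library of the same protein at 0.5 U/ul, KHSRP reads on HNRNPH1 were nearly equal, at 8077 and 8320 RPM, a log2 ratio of fluorescent over T1 of -0.04 (-0.14 to 0.05) beside a median of -0.53. HNRNPH3 had 835 and 1508 RPM in KHSRP, a ratio of -0.85. HNRNPH2 had 16.6 and 79.4 RPM, from 15 and 10 reads. In FUBP3 the ratios were -0.74 for HNRNPH1, -0.67 for HNRNPH2, -0.71 for HNRNPF and 0.47 (0.09 to 0.87) for HNRNPH3, beside a median of -0.84. In FUBP3 2.99% of genes were past 2-fold toward the fluorescent library and 42.5% toward T1, and in KHSRP 4.24% and 27.7%; of the members only HNRNPH2 in KHSRP was past 2-fold, on reads below the minimum of 50. Of the T1 KHSRP clusters on HNRNPH1, 20 of 22, with 98.9% of reads, overlapped a fluorescent KHSRP cluster at 0.5 U/ul. For KHSRP it was 9 of 12 on HNRNPH3, 1 of 2 on HNRNPF and 0 of 1 on HNRNPH2. For FUBP3 it was 9 of 13 on HNRNPH1, 2 of 3 on HNRNPH2, 3 of 6 on HNRNPH3 and 4 of 6 on HNRNPF. The fluorescent KHSRP clusters of HNRNPH1 covered 4083 nt, and the overlap over all genes was not computed.

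U2AF1 placed HNRNPH1 high among the members as well, with 2611 RPM (385 reads) at 1.5 U/ml and 2308 RPM (174 reads) at 15 U/ml. HNRNPH3 had 197 and 345 RPM (29 and 26 reads), HNRNPF 5 reads in each library, and HNRNPH2 none by name. On HNRNPH1 the reads were mainly coding, 252 of 385 (65.5%) and 163 of 174 (93.7%), against 23.6% and 21.0% over all genes. Its largest clusters lay at chr5:179617043-179617085 (78 reads) and chr5:179616151-179616186 (57 reads). The boundary class held 52 reads in 1 cluster at 1.5 U/ml and 0 of 174 at 15 U/ml, which allows up to 1.72%, where all genes had 30.0% and 14%. The window from that cluster is shown since CAG, in capitals, is the usual last triplet of an intron.
HNRNPH1 in U2AF1 1.5 U/ml, chr5:179618038-179618067: ctttCAGgctatggaggctatgatgattac
Of 482 boundary clusters of 30 to 60 nt in that library 332 (68.9%) held CAG.

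CPSF1 had 82 reads on HNRNPH1 (454 RPM), 28 on HNRNPF, 22 on HNRNPH3 and 8 on HNRNPH2. Its largest HNRNPH1 cluster, 21 reads at chr5:179614146-179614178, met the 3' end of the RefSeq span, which lies at 179614178 on the minus strand. Introns held 43 of the 82 reads (52.4%), against 79.5% with boundaries over all genes. The 82 reads were 13 distinct sequences, where 16.9 of 100 reads in the library were distinct. All 22 HNRNPH3 reads formed a cluster at chr10:68338465-68338489, inside the largest intron cluster of KHSRP at 0.15 U/ul, chr10:68338284-68338489. They were 2 distinct sequences, with T-to-C changes in 36.4% of reads, against 97.8% over all intron clusters of CPSF1. HNRNPF had 16 reads in an intron cluster at chr10:43408372-43408394, and the 8 HNRNPH2 reads lay in its 3' UTR at chrX:101413985-101414010.

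AGO2 gave the members few reads. The fluorescent libraries at 0.15 and 1.5 U/ul had none on HNRNPH1 and HNRNPH2, where 3 reads would be 10.1 and 8.93 RPM, 37 and 38 on HNRNPH3 (125 and 113 RPM), and 17 and 5 on HNRNPF (57.5 and 14.9 RPM). HNRNPH3 reads were led by a coding cluster near chr10:68341177-68341206, with 20 and 31 reads. Clusters with the same letters had 62 and 59 reads in the radiolabelled libraries made without the gel, 14 in library A of the gel group and none in library B. Capitals mark the bases common to the clusters of those 5 libraries.
HNRNPH3 coding site in AGO2: ttCTCACCACTAAATCCAATACGAGTTCAT
HNRNPF had a 3' UTR cluster in all 4 radiolabelled libraries, holding 47 and 22 reads where no gel was run and 15 and 6 after the gel, capitals again marking the bases in common.
HNRNPF 3' UTR site in AGO2: attaaaaaatTACCTCTTCAG
The T1 libraries of FUBP3 and KHSRP, with 14 and 9 reads, had clusters with 20 of these bases at chr10:43386493-43386512, so the site was not particular to AGO2.

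Matches to microRNA seeds (bases 2 to 8) were sought in these clusters for 30 miRNAs of the RefSeq table (GRCh38.p14) with most AGO2 reads at their position. The HNRNPH3 3' UTR cluster of both fluorescent AGO2 libraries, with 12 and 7 reads, held the match of miR-221-3p, and the HNRNPF 3' UTR cluster at 0.15 U/ul, with 11 reads, that of miR-19b-3p. Capitals mark the seed and its match.
miR-221-3p: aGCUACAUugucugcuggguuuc
HNRNPH3, chr10:68343018-68343043: atctatATGTAGCaaggaaaaggtgc
miR-19b-3p: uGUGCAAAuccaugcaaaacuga
HNRNPF, chr10:43386536-43386562: gaggaagctgggggacccatTTTGCAC
The same 7 letters occurred in 0.772% and 3.44% of 3368 fluorescent AGO2 clusters. Such shares are for a single seed, while the seeds of all 30 miRNAs were sought in each cluster. The share of clusters with a match of any of them is higher and was not computed. A radiolabelled no gel cluster of HNRNPF, with 11 reads, held the miR-19b-3p match too. The 15-read cluster of the HNRNPF site shown above, in library A of the gel group, held a match of miR-141-3p, whose letters occurred in 0.119% of the fluorescent clusters, and an intron cluster of 10 reads without the gel held one of miR-6807-3p. The coding site of HNRNPH3 held no match of these seeds. The RefSeq table lacks some miRNAs, and their seeds were not searched. miR-221-3p had 2294 reads at its position and miR-19b-3p 1436.

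With and without the urea gel, the 2 libraries of each kind allowed a test. HNRNPF had 158 and 51 reads in the no gel group and 20 and 6 in the gel group, or 170.0 and 83.9 RPM against 109 and 77.3 RPM, and the groups overlapped. Its log2 ratio of gel over no gel was -0.39 (edgeR quasi-likelihood, adjusted p = 0.770), and without library A of the no gel group it was 0.22. With 2 libraries a group this does not show that the levels were equal. Of 1121 genes tested, 1 (0.0892%) was lower with the gel and 2 (0.178%) higher at an adjusted p under 0.05. HNRNPH1, with 52 and 44 reads against 15 and 0, and HNRNPH3, with 186 and 114 against 27 and 0, had no cluster in library B with the gel and did not enter the test. That library had 77572 reads, where 3 reads are 38.7 RPM. By region HNRNPH3 reads were 73.1% and 82.5% coding without the gel, against 22.7% and 23.5% over all genes, and HNRNPF reads 60.8% and 62.7% 3' UTR, against 63.3% and 65.1%.

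Across the 11 fluorescent libraries the genes whose log2 levels followed HNRNPH1 most closely were CDC16, IPO5, RBM39, FUBP1 and DDX17, with Pearson correlations of 0.997 to 0.994 among 6075 genes. All had 0 reads in AGO2 and more in KHSRP than in FUBP3. For RBM39, an RNA-binding splicing factor, the levels were 3665, 3575 and 1898 RPM in KHSRP and 520, 687 and 371 RPM in FUBP3. The other members ranked far lower, HNRNPH3 at 0.778 (rank 310), HNRNPF at 0.494 (rank 3662) and HNRNPH2 at 0.271 (rank 5038). The libraries share proteins and depth, so these values are a description.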

How the data were processed

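Each file listed clusters of a single library. The deposited values were raw counts of reads and of distinct sequences per cluster, and the deposited T-to-C value was a fraction of reads. The authors' smallest cluster held 4 reads in U2AF1 and 5 in the libraries of the other proteins. Per the submitters' processing notes, bcl2fastq 2.20.0, cutadapt 1.15 and hg38 were used; aligner, cluster caller and annotation are not given in the sources used here. Members and gene lists were chosen with earlier results of these data known.

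Reads were summed by deposited gene name and divided by all reads in clusters of the library. T1 genes came from RefSeq spans. The 4 AGO2 gel libraries follow another build and give no coordinates. Cluster sequences matched RefSeq promoter letters in 425 of 425 clusters compared. Ratios carry exact intervals of 2 counts and shares Wilson intervals. A count of 0 was set to 3, and limits drawn from it are nominal, since smaller clusters than those listed can hold reads. The stretch on HNRNPH1, the CAG search and the length classes were chosen after the data were seen. The gel groups were tested with edgeR 4.0.16 (quasi-likelihood, TMM, genes with at least 10 reads and a cluster in each library), with DESeq2 1.42.0 as alternative, checked on simulated data. There the edgeR test found most large changes but few small ones, so few calls do not show few changes, and it made some false calls among large changes. Separate cultures are not stated for the gel libraries, so p-values may reflect technical spread alone. Alternatives covered scaling, distinct sequences, cluster minimum, largest cluster, read minimum and left-out libraries. Software was Python 3.11.15, pandas 2.3.3, scipy 1.17.1 and R 4.3.3. The 4 samples without a cluster file were not analysed here.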

Additional observations from a re-analysis of the deposited data

Results flagged for a closer look

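HNRNPF intron reads in the listed clusters moved opposite ways with RNase I dose in the 2 KH-domain proteins. In FUBP3 they numbered 33 at 0.15 U/ul and 43 at 1.5 U/ul, a log2 ratio of -1.44 (-2.14 to -0.75) in RPM. In KHSRP they numbered 83, in 9 clusters, and 0, or 2.55-fold higher at 0.15 U/ul with 3 reads set for the 0. The KHSRP library at 1.5 U/ul had 200210 reads against 2172248 at 0.15 U/ul, and no cluster under 5 reads. The part of depth in the 0 was not tested. The difference between the proteins was not tested, since each dose had 1 library.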

How the results depend on the processing

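HNRNPH1 stayed higher in KHSRP under each alternative run, with a log2 ratio between -4.82 and -2.16. At 0.15, 0.5 and 1.5 U/ul median-of-ratios scaling gave -2.16, -2.54 and -2.96, and clusters of at least 10 reads -2.59, -3.29 and -4.82. Distinct sequences gave -3.36 at 0.5 and -3.89 at 1.5 U/ul, and leaving out the largest cluster -2.37 at 0.15 and -2.88 at 0.5 U/ul. Of 15 values 5 moved by less than the counting interval, as did 22 of 38 for the other members, none changing sign. Of 21 dose ratios 1 changed sign: HNRNPF in FUBP3, at -0.028 without its largest cluster. Genes past 2-fold at all doses in KHSRP and FUBP3 numbered 242 and 176 of 3563 at a minimum of 10 reads, 22 and 0 of 61 at 200, and 40 and 41 of 789 with median-of-ratios scaling. The HNRNPH1 intron and boundary share in FUBP3 became 92.7%, 76.7% and 79.4% by cluster number, 95.6%, 80.8% and 68.4% without the largest cluster, 73.2% by distinct sequences at 0.15 U/ul and 68.2% with clusters of at least 10 reads at 1.5 U/ul. In KHSRP it became 83.3%, 87.8% and 88.9% by cluster number, 93.3% and 98.4% without the largest cluster at 0.15 and 0.5 U/ul, and 99.1% with clusters of at least 10 reads at 0.5 U/ul. The cause was not tested.

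In the gel comparison edgeR called 3 genes (149 at an unadjusted p under 0.05) and DESeq2 2 (97), no filter beyond 1 read gave 53 of 10809 and distinct sequences 5. Leaving out a library gave 1 to 13 calls and an HNRNPF ratio of -0.85 to 0.22; it was 0.22 without library A of the no gel group, and calls were 13 without it, 12 without no gel B and 1 without gel B, a lone library being assumed to vary like the others. With the replicate letter as a block 3 genes were called and HNRNPF stood at -0.42. Deviations of libraries with the same letter correlated at -0.00865 over 1121 genes, so no pairing by letter was seen. A single correlation does not show that the letters are unpaired. Regions from a gene model were not run, and deposited names gave no T1 value, since no T1 cluster carries a member's name. Depth limits HNRNPH2 in KHSRP and all members in AGO2; reads outside clusters were not used, and 1 library per condition leaves no spread between replicates.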
